A study of Bos taurus with 16 samples.

Results

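Cytosolic ribosomal protein genes encode the proteins that, with the ribosomal RNAs, build the large (60S) and the small (40S) subunit of the ribosome in the cytosol. The members were taken by symbol: RPLP0, RPLP1, RPLP2, RPSA, and RPL or RPS followed by a number, with or without a final A, X, Y or L. The rule kept out the kinases of the RPS6K family and symbols that begin with LOC. It found 79 genes in RefSeq's bovine gene table, of which 78 (46 of the 60S and 32 of the 40S subunit) had an accession in the deposited counts, among 20629 genes and transcripts in all. RPL22 was the member without one, and RPL39L and RPL41, which had been listed by name, were not matched to the gene table and were not analysed here.

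The 16 libraries, 7 with the label treatment and 9 with the label control, were made, per the labels' protocols, from poly(A) RNA of granulosa cells, which line the ovarian follicle, support the oocyte and produce oestradiol. All came from lactating Holstein cows, whose dominant follicle was aspirated 63 ± 3 days after calving during hormonal synchronisation of ovulation, in a cohort of 45 cows. The question, as the title of the series puts it, is what remains different in these cells once uterine disease is over. Within the cohort, cows with metritis had been given an antimicrobial. What treatment means is not stated in the labels, which tie no library to a cow and give blood as the tissue of every library. The groups are therefore named only treatment and control, and a p-value reflects how these libraries spread, which may be technical.

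A ribosome carries each of its proteins in a fixed ratio, so growing cells make the members in a coordinated way. In mammals most of their mRNAs begin with a run of pyrimidines (a TOP motif), through which mTOR signalling and the RNA-binding protein LARP1 set how much of them is translated. In the follicle, granulosa cells divide and later turn to steroid synthesis, and both need protein synthesis.

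The libraries were of 2 kinds, which cut across the labels. In 9 of them (treatment replicates 4, 5, 6 and 7, control replicates 2, 3, 4, 7 and 8) INHA, the alpha subunit of the granulosa hormone inhibin, lay between 1737 and 2999 CPM (the counts of a gene scaled to the total counts of its library). In the other 7 (treatment replicates 1, 2 and 3, control replicates 1, 5, 6 and 9) INHA lay between 0.401 and 110 CPM, and CD14, a receptor of monocytes and macrophages, between 1838 and 4003 CPM, against 5.24 to 328 CPM in the 9. These kinds are called INHA-high and INHA-low below. They were defined from the data and are not groups of the study, so they are compared without a test, and fewer cells of a type and less RNA per cell cannot be told apart. FSHR, the receptor through which granulosa cells respond to follicle-stimulating hormone, lay between 108 and 536 CPM in the 9 and between 0.0836 and 16.7 CPM in the 7, and no library had more than 42.1 CPM of HBB, a haemoglobin chain of red blood cells. CYP19A1, the aromatase of granulosa cells, went against the kind in 2 libraries, with 271 CPM in the INHA-high treatment replicate 7 and 1016 CPM in the INHA-low treatment replicate 1. Libraries held between 8111862 and 14348753 counts, so that 3 counts correspond to 0.209 to 0.370 CPM.

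The members together took between 3.87% and 8.36% of a library's counts, with a median of 5.21%. The share was 5.65% ± 1.30 (SD, n = 7) in treatment libraries and 5.49% ± 1.33 (SD, n = 9) in control libraries, a difference smaller than the spread within either group. In single libraries it was 4.89%, 5.44%, 6.08%, 5.28%, 8.36%, 5.13% and 4.37% in treatment replicates 1 to 7. In control replicates 1 to 9 it was 6.35%, 4.44%, 6.74%, 3.87%, 7.75%, 5.04%, 4.42%, 6.29% and 4.52%. On these totals the groups overlapped over almost their whole range, with only treatment replicate 5 above every control library and control replicate 4 below every treatment library. The order depended on the scale: with totals scaled by the trimmed mean of M-values (TMM), which offsets differences in the make-up of libraries, treatment replicate 5 was still the highest, at 10.4%. Control replicate 7 was then second, at 7.20%, control replicate 4 had 4.78%, and control replicate 9 was the only library below every treatment library, at 3.99%. The 95% binomial interval of a share, by Wilson's method, was at most 0.0343 percentage points wide. It covers counting error only, since PCR reads carry no molecular identifiers.

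**Figure D1:**
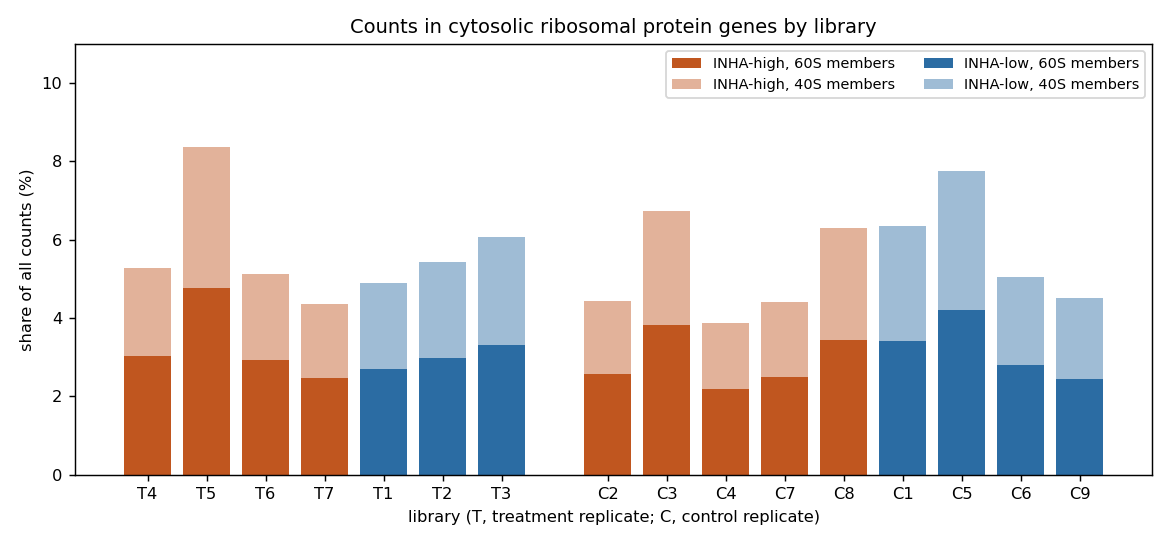
Share of all counts in cytosolic ribosomal protein genes in each of the 16 libraries (vertical axis, %), with treatment replicates left of control replicates and dark and light parts of a bar for 60S and 40S members. The highest bar, 8.36%, is treatment replicate 5 and the lowest, 3.87%, is control replicate 4; orange INHA-high and blue INHA-low libraries overlap.

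Within each kind the labels also overlapped. In INHA-high libraries the share was 5.78% ± 1.76 (SD, n = 4) in treatment and 5.15% ± 1.28 (SD, n = 5) in control. In INHA-low libraries it was 5.47% ± 0.592 (SD, n = 3) in treatment and 5.92% ± 1.45 (SD, n = 4) in control. The kinds themselves differed little, with 5.43% ± 1.45 (SD, n = 9) in INHA-high and 5.72% ± 1.10 (SD, n = 7) in INHA-low libraries. This order depended on the total used: with the 10 most abundant other genes left out of it, the INHA-high mean was 0.671 percentage points above the INHA-low mean, in place of -0.293. Those 10 genes held 7.77% to 22.1% of the counts of INHA-high libraries and 3.52% to 5.16% of INHA-low ones.

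Counts of 60S members exceeded those of 40S members in every library. The ratio of the summed counts was 1.31 ± 0.0440 (SD, n = 9), between 1.22 and 1.38, in INHA-high libraries and 1.21 ± 0.0290 (SD, n = 7), between 1.16 and 1.24, in INHA-low libraries. It was 1.28 ± 0.0617 (SD, n = 7) in treatment and 1.25 ± 0.0710 (SD, n = 9) in control libraries.

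Members were counted very unevenly. Of the 78, 24 averaged 1000 CPM or more, 28 between 100 and 1000 CPM, 14 between 10 and 100 CPM, 6 between 1 and 10 CPM, and 6 under 1 CPM. Without transcript lengths these levels cannot be set against each other between genes. The 6 under 1 CPM included RPS19, a 40S protein whose loss causes Diamond-Blackfan anaemia in humans, with 13 counts over all 16 libraries, and RPL10L, a testis-specific relative of RPL10 in humans, with 18 counts. The others were RPL17 with 3 counts, RPL23A with 1, RPL29 with 19 and RPS15A with 28. Each of these genes stood in the files with at most 4 counts in any library, which is close to the 3 counts that a count of 0 allows.

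The number of accessions a member had went with its level. The 62 members with 1 accession had a median of 760 CPM, and the 16 with 2 or more had a median of 48.1 CPM. In several of the 16 the counts sat almost wholly on 1 of the accessions. RPSA had 5 counts on NM_174379.2 and 47779 on XM_005222369.3, RPL28 had 4 on NM_001035503.2 and 1609 on XM_005219717.2, and RPS12 had 47 on NM_001014387.2 and 31383 on XM_005210930.3. How reads that match several transcripts were counted is not given in the sources used here, and ribosomal protein genes have many near-identical processed copies, so the level of any single member is uncertain. The library kit does not mark strand, so reads of antisense genes cannot be told apart either.

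No member passed the test between treatment and control. Across all 16 libraries, 71 members passed edgeR's filter on low counts, and 0 of them passed an adjusted p of 0.05, as did 0.0% of the 9653 genes and transcripts tested. At an unadjusted p under 0.05 it was 0 of 71 members, against 1.69% of everything tested. DESeq2 and limma-voom also called 0 members. The members' median log2 fold change (treatment over control) was 0.01, against 0.01 over everything tested, with 40 fitted values above 0 and 31 below. The standard errors of the members' log2 fold changes had a median of 0.26 and ran from 0.16 to 0.89. Without treatment replicate 5 the members' median was -0.25.

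**Figure D2:**
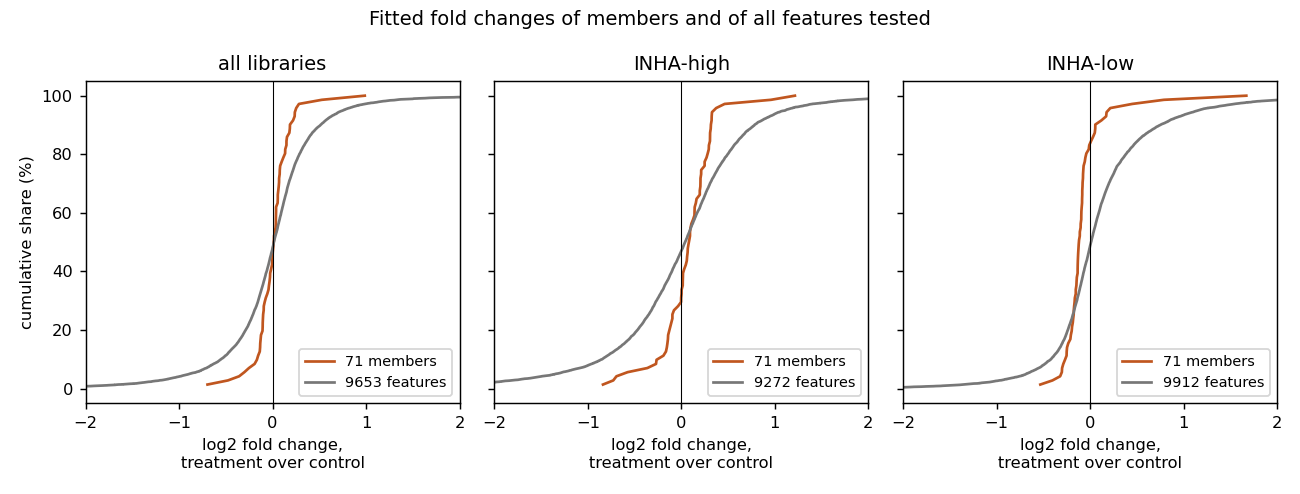
Cumulative share (vertical axis, %) of log2 fold changes of treatment over control (horizontal axis) for the members tested (orange) and everything tested (grey), over all libraries, INHA-high and INHA-low libraries. The orange curves are steeper, and their medians are 0.01, 0.08 and -0.12; values beyond 2 on either side are not drawn.

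The stalk proteins RPLP0, RPLP1 and RPLP2 form the flexible arm of the 60S subunit that recruits elongation factors. RPLP0 (NM_001012682.1), to which RPLP1 and RPLP2 bind, had a lowest, median and highest value of 2683, 2949 and 4691 CPM in treatment libraries and 2458, 2816 and 3881 CPM in control libraries. Treatment replicate 5 lay above every control library and control replicates 4 and 7 lay below every treatment library, while the other libraries overlapped. Its log2 fold change was -0.002 ± 0.21 (SE). RPLP1 (NM_001025340.2) lay between 1718 and 4241 CPM in treatment libraries and between 1258 and 3177 CPM in control libraries, again with treatment replicate 5 as the highest.

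RPLP2 (NM_174788.4) varied far more than its partners. It had 88.4, 89.9, 91.9, 66.4, 115, 122 and 0.155 CPM in treatment replicates 1 to 7. In control replicates 1 to 9 it had 59.6, 0.860, 11.8, 0.767, 70.0, 40.2, 70.4, 45.7 and 38.6 CPM. It was thus at 0.860 CPM or less in 3 libraries, treatment replicate 7 and control replicates 2 and 4, all of them INHA-high, and next lowest in control replicate 3. RPLP1 had 1937 CPM, 1590 CPM and 1596 CPM in those 3 libraries, inside its range elsewhere. Over all libraries the log2 fold change of RPLP2 was 0.99 ± 0.89 (SE), with an adjusted p of 0.9999 by edgeR.

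Within the INHA-low libraries RPLP2 was the member with the lowest p. All 3 treatment libraries, at 88.4 to 91.9 CPM, lay above all 4 control libraries, at 38.6 to 70.0 CPM. The log2 fold change was 0.79 ± 0.24 (SE), with an unadjusted p of 0.0122 and an adjusted p of 0.9996 by edgeR, so that it did not pass. It was the 1 member of 71 whose groups did not overlap among INHA-low libraries, against 3.81% of everything tested (1.98% for those higher in treatment), and the 1 with an unadjusted p under 0.05, against 2.61%. In INHA-high libraries 0 of 71 members had groups that did not overlap, against 1.74%, and RPLP2 there had a log2 fold change of 1.21 ± 1.46 (SE). The difference between the kinds in its fold change was 0.43 ± 1.83 (SE) with an adjusted p of 0.9999 by edgeR's interaction term.

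In INHA-high libraries 0 of 71 members passed by edgeR, against 0.0% of 9272 genes and transcripts tested, and 0 had an unadjusted p under 0.05, against 4.67%. The members' median log2 fold change was 0.08 (0.04 over everything tested), with 49 above 0 and 22 below, a share above 0 of 69.0% against 52.9%. Without treatment replicate 5 the median was -0.32. DESeq2 called 27 genes and transcripts in these libraries, and 0 of them were among the 71 members. In INHA-low libraries 0 of 71 members passed, against 0.0% of 9912, and 12 fitted values were above 0 and 59 below. The share above 0 was 16.9% for members against 51.1% for everything tested, and the median was -0.12 against 0.01. Without control replicate 5, the library with the second highest share, that median was 0.06. The treatment effect differed between the kinds at an adjusted p under 0.05 for 0 of 72 members and for 0.0% of 11468 tested by edgeR, and at an unadjusted p under 0.05 for 0 members, against 5.31%. The members' median difference was 0.29, or -0.18 without treatment replicate 5.

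The members with the lowest p over all libraries were RPL6, RPSA and RPL36A, each with a negative fitted value. RPL6, a 60S protein, had a lowest, median and highest value of 17.2, 29.4 and 46.6 CPM in treatment libraries and 20.3, 31.7 and 63.1 CPM in control libraries. Treatment replicate 5, at 17.2 CPM, lay below every control library and control replicates 5 and 8, at 63.1 and 57.7 CPM, above every treatment library, and the rest overlapped. The log2 fold change was -0.48 ± 0.25 (SE) with an unadjusted p of 0.0755 and an adjusted p of 0.9999 by edgeR. RPSA, a 40S protein also known as a receptor for laminin, had 116, 253 and 342 CPM in treatment and 203, 273 and 434 CPM in control libraries. Its lowest value was treatment replicate 5, the library in which most members were highest, and the log2 fold change was -0.36 ± 0.20 (SE). RPL36A, a 60S protein, was near the limit of counting, between 0.309 and 1.502 CPM in treatment and between 0.313 and 3.09 CPM in control libraries.

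RPS24, a 40S protein mutated in some humans with Diamond-Blackfan anaemia, had the third lowest p among INHA-high libraries. It had 29.5, 32.2, 17.8 and 16.0 CPM in treatment replicates 4 to 7, and 5.08, 29.3, 6.48, 4.47 and 15.1 CPM in control replicates 2, 3, 4, 7 and 8. The 4 treatment libraries lay above 4 of the 5 control libraries, and control replicate 3 lay among them. The log2 fold change was 0.96 ± 0.55 (SE), with an adjusted p of 0.983 by edgeR. Without one library at a time it ran from 0.65 to 1.48, with 1.48 without control replicate 3. In INHA-low libraries, where RPS24 lay between 20.7 and 51.7 CPM in treatment and between 16.6 and 40.4 CPM in control, it was 0.17 ± 0.43 (SE).

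RPS4X, the X-linked 40S protein, and RPL21, a 60S protein, followed RPLP2 in the INHA-low libraries. RPS4X had 31.1, 27.6 and 28.1 CPM in treatment and 38.1, 50.2, 34.6 and 30.1 CPM in control libraries, and 1 of the 4 control libraries lay inside the range of treatment. The log2 fold change was -0.40 ± 0.21 (SE), and -0.25 without control replicate 5. RPL21 had 45.2, 39.998 and 34.3 CPM in treatment and 47.9, 60.1, 49.0 and 36.2 CPM in control libraries, with a log2 fold change of -0.29 ± 0.20 (SE), which was -0.17 without control replicate 5. Without one library at a time it ran from -0.51 to -0.25 for RPS4X and from -0.41 to -0.17 for RPL21. Of the 3 accessions of RPL21, XM_005213761.2 had 30.8 CPM in treatment replicate 7 and 18.4 CPM in control replicate 7, both INHA-high, and at most 3.42 CPM in any other library.

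**Figure D3:**
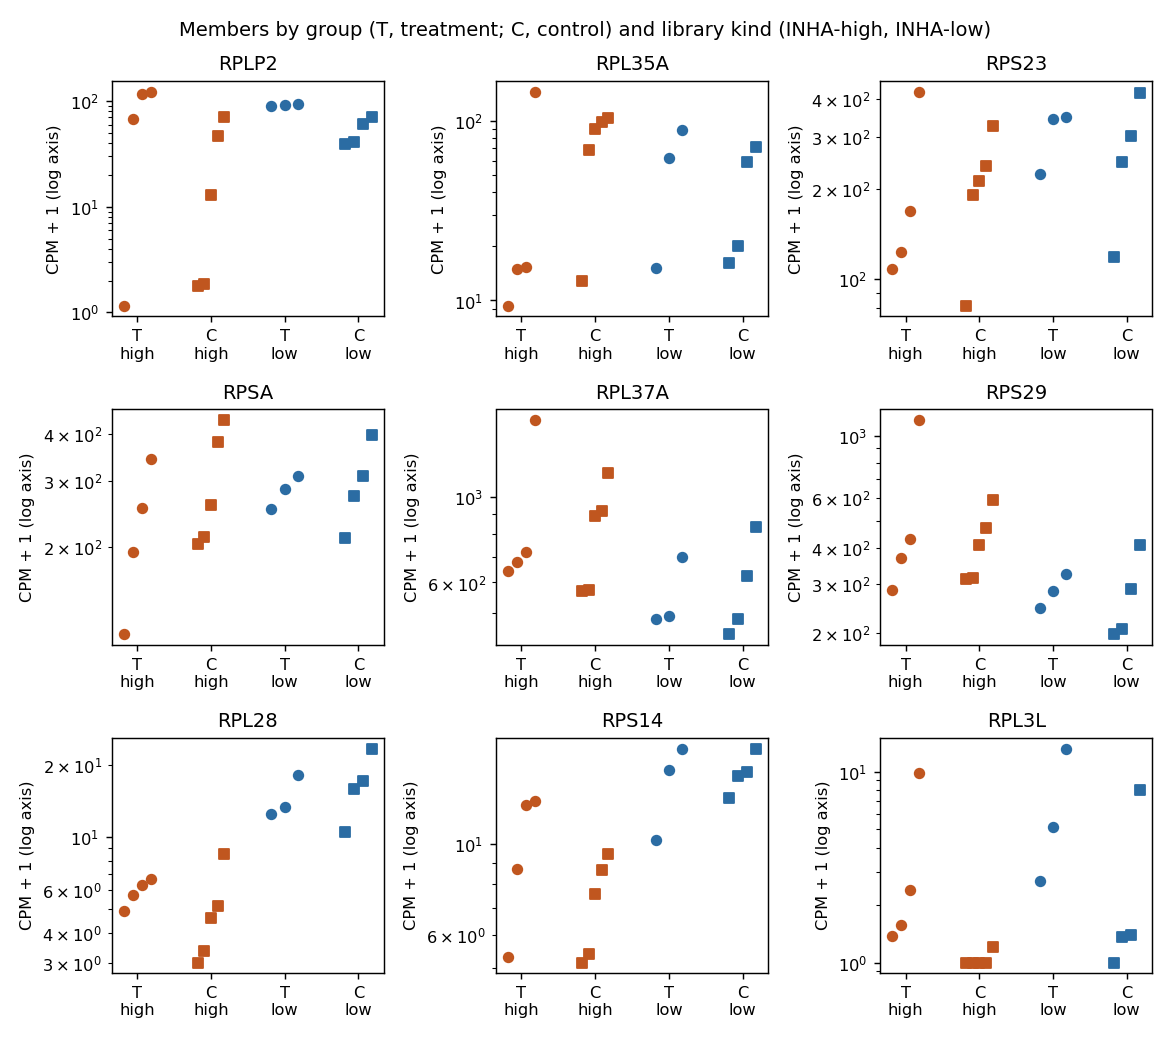
CPM + 1 (vertical log axes) of 9 members, with 1 point per library, treatment (T, circles) left of control (C, squares) and INHA-high libraries (orange) left of INHA-low ones (blue); points of a group are spread sideways by value. RPL28 separates the kinds, RPL35A falls into a high and a low range in every group, and RPL3L is at or near 0 in 8 of 9 control libraries.

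RPL3L, which replaces RPL3 in the ribosomes of heart and skeletal muscle in mice and humans, was counted in every treatment library, at low counts. RPL3L (NM_001035501.1) had 111, 51, 20, 81, 14, 6 and 5 counts in treatment replicates 1 to 7, and 5, 0, 0, 0, 0, 5, 0, 2 and 57 counts in control replicates 1 to 9. Every treatment library had counts, and 5 of the 9 control libraries had none. Control replicate 9, with 57 counts, lay above all but 2 treatment libraries.

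RPL3L failed the filter on low counts over all libraries and over INHA-high ones. Without that filter, a setting chosen for RPL3L after the data were seen, it had a log2 fold change of 2.27 ± 1.19 (SE) over all libraries, with an adjusted p of 0.807 by edgeR. Within INHA-high libraries it had 106 counts in treatment and 2 in control, a ratio of 75.003 in CPM with an exact 95% counting interval of 20.3 to 627. The log2 fold change there was 5.74 ± 1.39 (SE), with an unadjusted p of 0.000594 and an adjusted p of 0.710 by edgeR, while DESeq2 gave 6.07 ± 1.48 with an adjusted p of 0.0414. Treatment replicate 4 held 81 of the 106 counts. Without it the ratio was 22.6 with an interval of 5.63 to 197, the adjusted p by edgeR was 0.812, and DESeq2 gave no adjusted p. Both intervals pool the reads of a group and cover counting error only, not the spread between libraries. In INHA-low libraries, where RPL3L passed the filter, the log2 fold change was 1.67 ± 1.44 (SE). For RPL3L the log2 fold change in INHA-high minus that in INHA-low libraries was 4.11 ± 2.10 (SE), with an unadjusted p of 0.0682 and an adjusted p of 0.911 by edgeR, so this difference did not pass; it rests on the 2 counts of the INHA-high control libraries. RPL3 itself lay between 1187 and 1874 CPM in treatment and between 963 and 2353 CPM in control libraries.

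Between the kinds most members differed little. The median log2 ratio of the mean CPM of INHA-high over INHA-low libraries was -0.06 over the 71 members, against -0.16 over everything tested, and 4 members differed by more than 2-fold, against 41.1% of everything tested. The direction depended on the scale: 28 members were higher and 43 lower in INHA-high libraries in CPM, while 52 were higher and 19 lower after TMM scaling, which moved the median of everything tested to 0.04 and that of the members to 0.17. In 2 of 71 members (2.82%) the CPM of the kinds did not overlap, against 17.7% of everything tested. After TMM there were 3 such members, RPS27 among them, against 19.0%. RPS27 averaged 5.60 CPM, and its ranges overlapped in CPM. Of its counts, 602 and 387 lay on non-coding RefSeq records and 9 on the coding one.

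**Figure D4:**
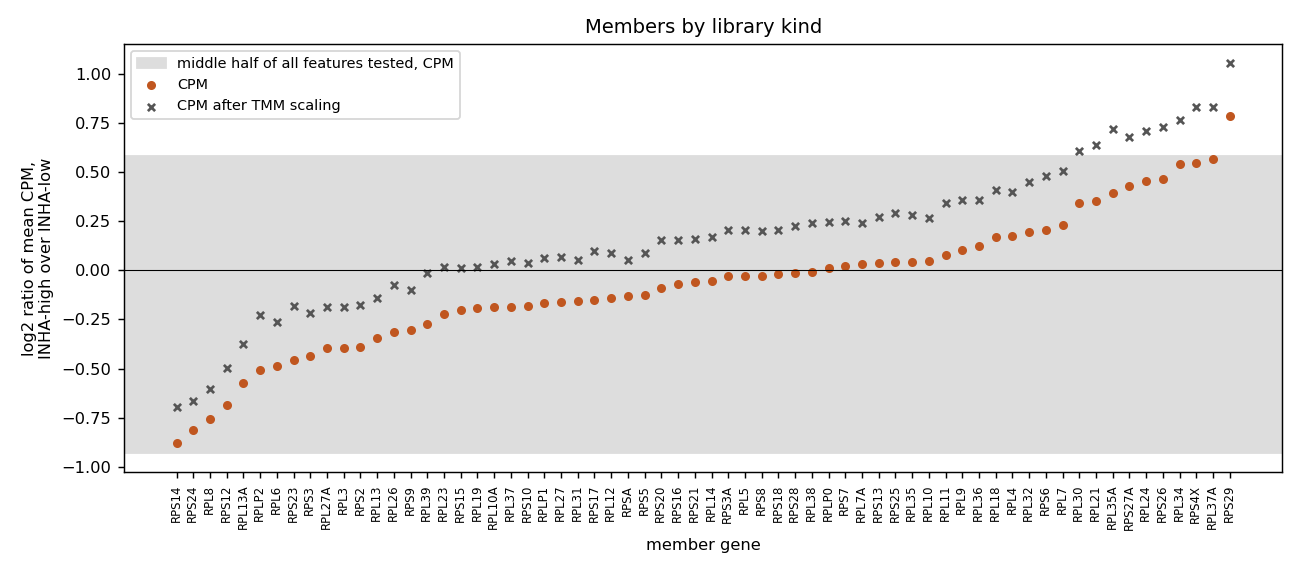
Log2 ratio of the mean CPM of INHA-high over INHA-low libraries (vertical axis) for 64 members of at least 10 CPM, in ascending order, from CPM (circles) and after TMM scaling (crosses). From CPM, RPS14 at -0.88 and RPS29 at 0.78 are the ends of those drawn, and RPS29 lies above the grey band, which spans the quartiles of everything tested.

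RPL28, a 60S protein, was among those that did not overlap. It had a lowest, median and highest value of 2.00, 4.15 and 7.53 CPM in INHA-high libraries and 9.49, 14.9 and 22.4 CPM in INHA-low libraries, a log2 ratio of -1.76. With either label the kinds stayed apart. RPL28 lay between 3.94 and 5.71 CPM in INHA-high and between 11.5 and 17.3 CPM in INHA-low treatment libraries, and between 2.00 and 7.53 CPM in INHA-high and between 9.49 and 22.4 CPM in INHA-low control libraries.

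RPS29, a zinc-binding 40S protein, and RPL37A, a zinc-binding 60S protein, were at the upper end. RPS29 (NM_174804.3) had 284, 410 and 1132 CPM in INHA-high libraries and 198, 281 and 409 CPM in INHA-low libraries, a log2 ratio of 0.78. RPL37A (NM_001035008.2) had 569, 718 and 1575 CPM in INHA-high and 440, 490 and 833 CPM in INHA-low libraries, a log2 ratio of 0.57. In both the ranges overlapped, and the highest value was treatment replicate 5.

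At the lower end stood RPS14, RPS24 and RPL8. RPS14, the 40S protein lost in the human 5q- syndrome, had 4.15, 7.66 and 11.7 CPM in INHA-high and 9.20, 13.9 and 16.0 CPM in INHA-low libraries, a log2 ratio of -0.88. RPL8, a 60S protein close to the peptidyl transferase centre, had 19.3, 48.5 and 71.1 CPM in INHA-high and 53.6, 79.7 and 96.3 CPM in INHA-low libraries, a log2 ratio of -0.76. RPS24 had a log2 ratio of -0.81, and all 3 had overlapping ranges. RPS27L, a relative of RPS27 that p53 induces in human cells, stood apart among the members under 10 CPM, with 0.927, 3.09 and 4.10 CPM in INHA-high and 0.293, 0.770 and 1.04 CPM in INHA-low libraries, a log2 ratio of 1.95 with ranges that overlapped through treatment replicate 7.

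With each library scaled to its own median member, in place of CPM, the kinds separated for 13 of 71 members (18.3%), against 14.6% of everything tested. This scaling takes out spread that the members share and not that of other genes, so the shares are not like for like. Among the 13, RPL37A, RPS27 (counted mostly on non-coding records) and RPS27A, which is made as a fusion with ubiquitin, were higher in INHA-high libraries on this scale. RPL10A, RPL13A, RPL27A, RPL28, RPS3, RPS9, RPS10 and RPS12 were lower. RPS3, at the entry of the mRNA channel, had 1120, 1503 and 2022 CPM in INHA-high and 1725, 1877 and 2845 CPM in INHA-low libraries. RPS12, another 40S protein, named after its values were seen, had 92.0, 134 and 240 CPM in INHA-high and 180, 241 and 293 CPM in INHA-low libraries, so that the CPM ranges of both genes overlapped.

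**Figure D5:**
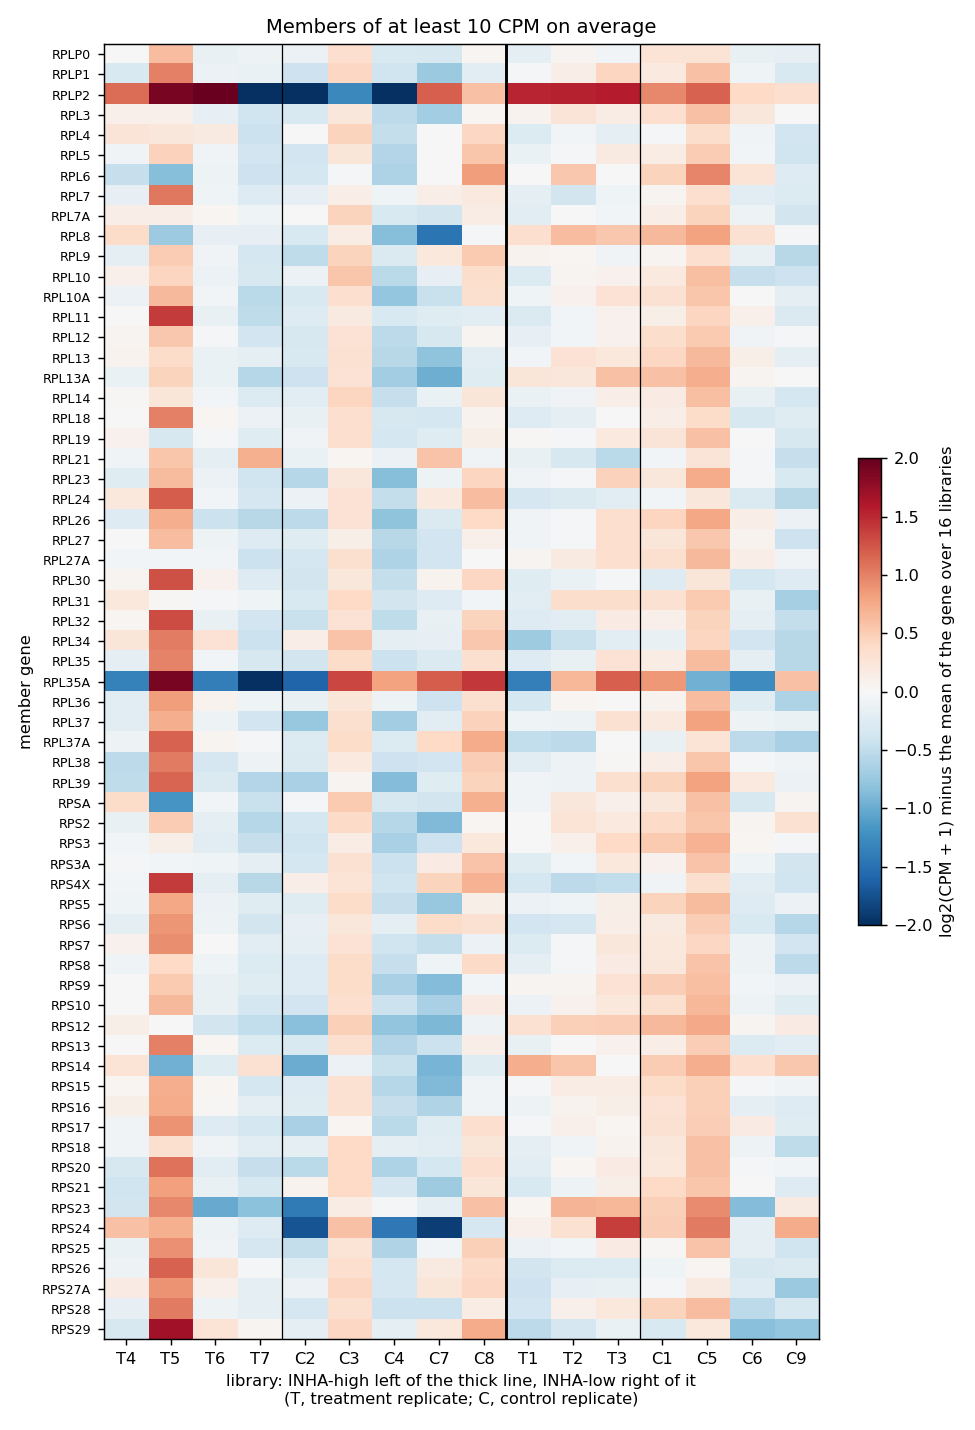
Log2(CPM + 1) minus the mean of the gene over 16 libraries for 64 members of at least 10 CPM (down the page) in each library (across), INHA-high left of the thick line and, within each kind, treatment left of control. Colours stop at 2 on either side, which RPLP2 exceeds; treatment replicate 5 is red for most members, and RPLP2, RPL35A, RPS23 and RPS24 change between libraries unlike the rest.

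By their median SD, the members varied less relative to each other than in level. The median SD of log2(CPM + 1) over the 66 members of at least 10 CPM was 0.45 in INHA-high libraries, against 0.67 over the 5258 genes and transcripts at that level, and 0.29 in INHA-low libraries, against 0.30. Relative to the median member of the same library, the median SD of a member was 0.23 in INHA-high and 0.12 in INHA-low libraries. Taking out the members' own median lowers the spread that they share, and no such SD was computed for other genes. Some members went the other way in INHA-high libraries, among them RPSA (0.76 relative to the median member, against 0.58) and RPL19 (0.43, against 0.23). Treatment replicate 5 was the highest of the 16 libraries for 35 of the 66 members (53.0%), against 14.8% of everything at that level, and control replicate 5 for 24 (36.4%), against 6.22%. Treatment replicate 5 also listed the fewest accessions, 12972, where the other libraries listed 13663 to 19236, and had a TMM factor of 0.807. Whether these values bear on its ribosomal protein counts was not tested. Control replicate 4 was the lowest library for 20 of the 66 members (30.3%), against 5.08% of everything at that level, and control replicate 9 for 12 (18.2%), against 5.06%. Control replicate 7 was the lowest for 17 members (25.8%), against 30.9%.

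The largest departures from the median member were those of RPLP2, with an SD of 2.58 in INHA-high and 0.49 in INHA-low libraries, and RPL35A, with 1.41 and 1.12. RPSA came next in INHA-high libraries with 0.76, and RPS23, a 40S protein of the decoding centre, in INHA-low libraries with 0.46. RPL35A, a 60S protein mutated in some humans with Diamond-Blackfan anaemia, had 14.2, 60.9, 87.9, 14.3, 144, 13.97 and 8.35 CPM in treatment replicates 1 to 7. In control replicates 1 to 9 it had 70.2, 11.9, 97.4, 67.4, 19.1, 15.2, 89.4, 103 and 57.8 CPM. There were 7 libraries at 19.1 CPM or less and 9 at 57.8 CPM or more, with a step of 1.55 on the log2 scale between them and none inside it. Both ranges held libraries of either label and either kind. RPL35A was the 1 of 66 members with a step of at least 2-fold that had 3 or more libraries and both kinds on each side (1.52%, against 2.24% of everything at that level). Of its counts, 9649 were on XM_005201389.1 and 210 on NM_001025321.3.

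RPS23 (NM_001034690.2) lay between 107 and 423 CPM in treatment libraries and between 80.6 and 419 CPM in control libraries. Among INHA-low libraries control replicate 6, at 118 CPM, lay furthest below the rest, which had 224 to 419 CPM.

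The remaining members listed by name for their roles showed no separation of the labels. RPL5 and RPL11, which enter the 60S subunit with the 5S RNA and bind the p53 regulator MDM2 when free, showed wide overlap. RPL5 had 914 to 1635 CPM in treatment libraries, against 792 to 1743 CPM in control libraries, and RPL11 had 82.1 to 310 CPM in treatment libraries, against 94.5 to 157 CPM in control libraries. RPL4, which lines the exit tunnel for the growing protein, lay between 2000 and 3198 CPM in treatment and between 1938 and 3639 CPM in control libraries. RPL39, also of the exit tunnel, lay between 138 and 465.9 CPM in treatment and between 114 and 366 CPM in control libraries. RPL10, which joins the 60S subunit late, lay between 610 and 1019 CPM in treatment and between 522 and 1155 CPM in control libraries. RPL15, a 60S protein, lay between 2.10 and 9.59 CPM in treatment and between 1.95 and 11.2 CPM in control libraries. In all of these the ranges overlapped widely, and the 310 and 465.9 CPM of RPL11 and RPL39 were those of treatment replicate 5.

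RPS6, the 40S protein that the S6 kinases phosphorylate, had a lowest, median and highest value of 96.9, 111 and 233 CPM in treatment and 84.8, 143 and 178 CPM in control libraries. RPS27A had 235, 283 and 590 CPM in treatment and 188, 307 and 420 CPM in control libraries. In both, treatment replicate 5 was the highest and the medians were lower in treatment, with overlapping groups. Some members are often used to normalise quantitative PCR. Of these, the log2 fold change of treatment over control was -0.15 ± 0.21 (SE) for RPS18, 0.07 ± 0.21 for RPS9, -0.19 ± 0.16 for RPL19 and 0.10 ± 0.23 for RPL13A. Between the kinds the log2 ratio was -0.02 for RPS18, -0.30 for RPS9, -0.19 for RPL19, -0.58 for RPL13A and 0.01 for RPLP0 in CPM. After TMM it was 0.21 for RPS18 and 0.24 for RPLP0, 0.02 for RPL19, -0.10 for RPS9 and -0.37 for RPL13A.

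Genes that work with the ribosome were looked at in 7 lists. Of the parts of the ribosome outside the rule, 7 were tested, of elongation factors 6, of initiation factors 41, of other TOP mRNA genes 16, of ribosome biogenesis genes 22, of mitochondrial ribosomal proteins 74 and of RPS6 kinases and mTOR pathway genes 13. Over all libraries 0 passed in either direction in any of these lists by edgeR, and 0 passed within either kind. Some genes are in more than 1 of the lists. FAU, made as a fusion with a relative of ubiquitin, had a log2 fold change of 0.09 ± 0.26 (SE), and RACK1, a signalling scaffold on the 40S subunit, -0.003 ± 0.22. The medians of these lists lay between -0.22 and 0.12 over all libraries.

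The mitochondrial ribosomal proteins, which build a separate ribosome, had 61 of 73 fitted values above 0 and a median log2 fold change of 0.25 in INHA-high libraries, and 16 of 74 above 0 with a median of -0.12 in INHA-low libraries. Ribosome biogenesis genes, which process ribosomal RNA and assemble the subunits, had 19 of 22 above 0 with a median of 0.30 in INHA-high, and 5 of 22 above 0 with a median of -0.17 in INHA-low libraries. None of these genes passed the test. Over everything tested, 52.9% of fitted values were above 0 in INHA-high libraries (median 0.04) and 51.1% in INHA-low libraries (median 0.01). Neither list was examined with single libraries left out. RRS1, which brings the 5S RNA into the 60S subunit in yeast, had 50.7, 51.6, 39.2 and 59.1 CPM in treatment replicates 4 to 7, against 18.5, 36.1, 17.4, 8.39 and 21.5 CPM in control replicates 2, 3, 4, 7 and 8. All 4 INHA-high treatment libraries lay above all 5 INHA-high control libraries, a separation that 1.18% of everything tested there also showed. The log2 fold change was 1.22 ± 0.34 (SE), with an unadjusted p of 0.00478 and an adjusted p of 0.983 by edgeR. In INHA-low libraries RRS1 had a log2 fold change of -0.07 ± 0.19 (SE). Between the kinds, 20 of the 22 biogenesis genes were lower in INHA-high libraries in CPM, with a median log2 ratio of -0.59. The median was -0.06 for the members and -0.16 for everything tested, for which the share lower in INHA-high libraries was not counted. The biogenesis list was compared between the kinds in CPM only. After TMM scaling the median was 0.17 for the members and 0.04 for everything tested, so these ratios depend on the scale.

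EIF5A2, a relative of the translation factor eIF5A, had the lowest p among the initiation factors. It had 53.9, 31.9, 21.9, 36.6, 23.6, 6.40 and 3.71 CPM in treatment replicates 1 to 7 and 15.9, 3.52, 4.72, 3.41, 7.65, 13.6, 4.79, 5.85 and 32.7 CPM in control replicates 1 to 9. Treatment replicates 1 to 5 lay above every control library but control replicate 9, which only treatment replicates 1 and 4 exceeded, and treatment replicates 6 and 7 lay among the control libraries. The log2 fold change was 1.28 ± 0.54 (SE), with an unadjusted p of 0.0298 and an adjusted p of 0.9999 by edgeR. MRPL28, of the mitochondrial ribosome, had a log2 fold change of 0.88 ± 0.42 (SE), HNRNPA1, an RNA-binding protein with a TOP mRNA, 1.25 ± 0.70, EEF1D, of the complex that recharges EEF1A, -0.40 ± 0.23, RHEB, the activator of mTOR, -0.58 ± 0.42, and RPS4Y1, a relative of RPS4X, -0.40 ± 0.31. None of them passed, and HNRNPA1 was at most 3.69 CPM in any library.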

How the data were processed

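Each deposited file gives, for 1 library, raw read counts by RefSeq accession; an accession without a line was taken as 0. Per the labels' protocols, 200 ng of total RNA (integrity number 7 or above) went through poly(A) selection and an unstranded library kit with 12 PCR cycles. SAMtools, Bowtie2 and cutadapt are named, without versions, per the submitters' processing notes. The genome build and the handling of multiply matching reads are not stated there.

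Of 27173 transcript accessions, 18973 matched a symbol in RefSeq's gene table without regard to version (10155 with the same version) and held 95.13% of the counts. Accessions of 1 gene were summed (102 accessions for the 78 members), and 8200 unmatched transcripts stayed as features of their own. The 133 genomic records, 0.712% to 1.919% of a library, stayed in the totals used for CPM and out of the tests. CPM is computed from the deposited counts. No sequence, transcript length or coordinate was used.

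Treatment was compared with control by edgeR 4.0.16 (R 4.3.3) with the quasi-likelihood test with robust estimation, TMM scaling, filterByExpr by group and Benjamini-Hochberg adjustment over everything tested at 0.05. Standard errors were derived from the fold change and the F value of its test. INHA-high means over 1000 CPM and INHA-low under 200 CPM. Library kinds and sums over members got no test. Alternatives were DESeq2 1.42.0, limma-voom (limma 3.58.1), other scalings, filters and accession choices, the replicate number as a block, the kind as a covariate, and each library left out. Scaling to the median member, the RPL3L fits without a filter and the step rule were added after seeing the data. Values of a few genes are not reported here, though sums and counts over the members include them. The fits were tested on simulated data. Of 100 features set there to an absolute log2 fold change of 2, 51 were recovered over all libraries, 32 in INHA-high and 61 in INHA-low libraries. Of 100 set to 4, 85, 90 and 91 were recovered, in the same order. False calls numbered 2, 2 and 10. Smaller fold changes were not tested. The simulated counts were drawn for each gene separately around a common mean, without library kinds or shifts that genes share. Recovery and false calls may therefore differ in the real libraries. The members, lists and tests were chosen with earlier results of these data known. Named genes were those listed for their role, the 3 members with the lowest p in each fit, the 3 at each end of the ratio between kinds and the 3 that varied most within each kind (at 10 CPM or more on average), and the gene with the lowest p of each related list. RPL28, RPS27, RPS12 and the members named as separating the kinds after scaling were chosen after their values were seen.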

Additional observations from a re-analysis of the deposited data

Results flagged for a closer look

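In 80 groups of 4 to 10 libraries the highest or lowest library was set against Dixon's 95% critical value, and 12 values lay beyond it; chance alone gives about 1 in 20 groups. Treatment replicate 5 gave 9 of the 12, always as the highest library of its group. Its share of counts in ribosomal protein genes was 8.36%, and its CPM was 4691 for RPLP0, 233.4 for RPS6, 590.0 for RPS27A, 106.9 for RPS4X, 310.0 for RPL11, 465.9 for RPL39, 1132 for RPS29 and 1575 for RPL37A. These values come from 1 library and share its total, so they are not separate observations. The other 3 came from control replicate 9, the highest of its group with 7.027 CPM of RPL3L, 32.67 CPM of EIF5A2 and 2.712 CPM of HNRNPA1.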

How the results depend on the processing

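Of 551 alternative values, 547 kept their direction, where one was called, and their side of the threshold or moved by less than the spread, and 4 moved further. DESeq2 called 27 genes and transcripts in INHA-high libraries, where edgeR called 0; 0 were members tested. With the replicate block the members' median log2 fold change in INHA-high libraries was -0.35, and over all libraries -0.08, with 0 calls. In INHA-high libraries only numbers 4 and 7 stand in both groups. The -0.35 therefore rests on the libraries of these numbers, without treatment replicate 5, and the lack of calls there says little. Over all libraries, numbers 2, 3, 5 and 6 join different kinds, so a difference within a number also carries the kind. Whether the replicate numbers pair the libraries is not known. The correlation of the deviations of same-numbered libraries from their group means was positive for 3 of 7 numbers, between -0.605 and 0.605. Those were numbers 1, 4 and 7, whose libraries are of the same kind, while the numbers with a negative value join different kinds. The correlation therefore follows the kind and cannot decide whether the numbers pair libraries. No paired analysis was possible within INHA-low libraries because the groups share 1 number. With single libraries left out, the members' median difference between kinds ran from -0.18 to 0.41, that of all libraries from -0.25 to 0.07, of INHA-high from -0.32 to 0.23 and of INHA-low from -0.24 to 0.06, with 0 calls in each. Scaled to the median member, which takes out spread that the members share, 13 members separated the kinds, in place of 2. The cause of these shifts was not tested. For the comparison of kinds the alternatives name library size in place of TMM; CPM by library size was used as the reported value and TMM as the alternative. Counts limit the members under 10 CPM, and reads shared with near-identical copies limit all of them.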

Other observations

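Among the genes that work with the ribosome, 2 had low unadjusted p-values in INHA-low libraries and were picked after their values were seen. EEF1A1, which brings aminoacyl-tRNA to the ribosome, had 91.2, 119 and 108 CPM in treatment replicates 1 to 3, against 21.1, 21.4, 16.1 and 78.0 CPM in control replicates 1, 5, 6 and 9. All 3 treatment libraries lay above all 4 control libraries, a separation that 1.98% of everything tested in INHA-low libraries also showed. The log2 fold change was 1.66 ± 0.54 (SE), with an unadjusted p of 0.0183 and an adjusted p of 0.9996 by edgeR. Its level is uncertain, since how reads that match several transcripts were counted is not given. In INHA-high libraries EEF1A1 had a log2 fold change of -0.08 ± 0.65 (SE). MYC, a transcription factor that drives ribosome biogenesis, had a log2 fold change of -0.70 ± 0.19 (SE) in INHA-low libraries, with an unadjusted p of 0.00788 and an adjusted p of 0.9996 by edgeR, and 0.61 ± 0.88 in INHA-high libraries. Neither passed.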
